A study of Mus musculus with 20 samples.

Results

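The HOX cluster genes are the mouse genes whose symbol is Hoxa, Hoxb, Hoxc or Hoxd followed by a number. This rule found 39 of the 49997 genes in the count tables, 11 in the Hoxa cluster, 10 in the Hoxb cluster, 9 in the Hoxc cluster and 9 in the Hoxd cluster. The rule used symbols only and no measured value. Polyadenylated RNA was sequenced from cultured bone marrow cells of the mouse in 6 groups of 3 libraries. The stem cell population, called HSC, had been sorted as lineage-negative, Kit-positive, Sca1-positive, CD201-positive and CD150-positive, and the progenitor population, called HPC, as lineage-negative, Kit-positive and Sca1-positive without CD201 and CD150. Each came in 3 Runx2 genotypes: wild type (WT), heterozygous knockout (het) and homozygous knockout (hom). Runx2 belongs to the RUNX transcription factors, which share a DNA-binding domain. Floxed mice and CRISPR are both named as sources of the knockout without being tied to single libraries, and neither the age of the animals nor the length of culture is given.

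HOX genes encode homeodomain transcription factors that pattern the body axis and are also used in blood. They lie in clusters, are numbered by paralogue group from the 3' end (1) to the 5' end (13), and genes with the same number in different clusters descend from a common ancestor. In the haematopoietic system Hoxa9 and Hoxb4 are the classical members: Hoxa9 is needed for normal stem cell function and is high in many acute leukaemias, and forced Hoxb4 expression expands stem cells. HOX proteins bind DNA with cofactors of the TALE class, above all the MEIS and PBX proteins, and trithorax and Polycomb complexes keep the clusters active or silent.

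In the mm10 annotation of the tables the Hoxa cluster lay on chromosome 6 between 52155367 and 52260880 (105.5 kb), the Hoxb cluster on chromosome 11 between 96194316 and 96368254 (173.9 kb), the Hoxc cluster on chromosome 15 between 102921131 and 103036856 (115.7 kb) and the Hoxd cluster on chromosome 2 between 74668225 and 74765142 (96.92 kb). RefSeq promoter windows of build GRCm38.p6, 250 bases before to 50 bases after a start site, were found for 22 of the 39 members (24 windows). The windows of Hoxa9 (the member with the highest level), Hoxa3 (a member called between genotypes in both populations) and Hoxb8 (a member with counts almost only in HSC) are shown, because these are the stretches in which RUNX core letters were searched. Each runs 5′ to 3′ on the strand of its gene, and capitals mark the 50 bases from the start site on.
Hoxa9 (chr6:52227321-52227620, minus strand): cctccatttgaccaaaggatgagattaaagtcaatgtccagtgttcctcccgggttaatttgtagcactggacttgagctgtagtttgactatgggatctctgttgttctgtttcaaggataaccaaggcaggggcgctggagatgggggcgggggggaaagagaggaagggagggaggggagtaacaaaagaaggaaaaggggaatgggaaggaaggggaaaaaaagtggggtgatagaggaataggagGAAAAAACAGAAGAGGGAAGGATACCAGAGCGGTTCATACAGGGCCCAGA
Hoxa3 (chr6:52213018-52213317, minus strand): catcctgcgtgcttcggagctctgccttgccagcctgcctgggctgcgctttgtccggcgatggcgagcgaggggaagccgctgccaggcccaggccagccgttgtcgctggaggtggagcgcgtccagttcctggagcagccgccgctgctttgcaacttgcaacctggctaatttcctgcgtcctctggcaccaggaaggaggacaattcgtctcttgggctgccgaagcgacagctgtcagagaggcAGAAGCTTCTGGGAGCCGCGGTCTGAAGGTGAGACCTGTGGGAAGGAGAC
Hoxb8 (chr11:96281655-96281954, plus strand): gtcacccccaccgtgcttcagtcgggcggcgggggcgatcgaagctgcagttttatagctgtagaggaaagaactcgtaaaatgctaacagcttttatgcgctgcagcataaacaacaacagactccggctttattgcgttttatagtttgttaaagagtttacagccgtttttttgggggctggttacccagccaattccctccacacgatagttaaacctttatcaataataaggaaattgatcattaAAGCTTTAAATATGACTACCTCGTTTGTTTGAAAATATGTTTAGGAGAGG
The starts of Hoxa9 and Hoxa3 are the outer ends of those genes in the tables, and that of Hoxb8 lies inside its annotated span. The letters TGTGGT or their reverse complement ACCACA were in 1 of the 24 windows (4.17%), that of Hoxd10, against 16.8% of all 32851 windows of this length. The second form, TGCGGT or ACCGCA, was in 2 of the 24 (8.33%), those of Hoxd1 and Hoxd3, against 6.45% of all windows. Neither form was in a window of the 10 detected members that had one, the 3 shown included, which says only that these letters are not in these stretches. The table held no window for Hoxb2, Hoxb3 and Hoxb9.

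The 18 libraries held 16663497 to 27061457 counts assigned to genes. Runx2 levels, in CPM (assigned counts scaled to a common library size) as mean ± SD (n = 3), were 122 ± 3.49 in HSC WT, 85.1 ± 3.90 in HSC het and 26.0 ± 1.73 in HSC hom, and 126 ± 3.87, 104 ± 4.40 and 23.5 ± 1.09 in the same order in HPC, so the order of the genotypes matched the labels. Of the 10 tested HSC markers 6 were higher and 1 lower in WT HSC than in WT HPC, among them Procr, which encodes CD201, at a log2 fold change of 3.02 ± 0.20 (SE, adjusted p = 5.9e-10, edgeR quasi-likelihood test). The shares of all tested genes were 27.7% higher and 27.2% lower. Ly6a, which encodes Sca1, was at 0 counts in all groups, although both populations had been sorted as Sca1-positive. A count of 0 in these data therefore need not mean that RNA was absent, and the reason was not tested. All HSC libraries contained the Y-linked Ddx3y (112 to 157 CPM) and all HPC libraries had 0 counts of it, so population and sex of the donors cannot be told apart. HSC hom replicate 3 differed from replicate 1 more than any other pair within a group (chi-square per gene 26.9, against 4.61 to 16.5 in the other pairs), so values that rest on HSC hom are also given without HSC hom replicate 3. HSC hom replicate 2 differed from replicate 1 at 10.1 and from replicate 3 at 11.4. These values do not say which of replicates 1 and 3 is the odd one. Whether the 3 replicates of a group came from separate animals or cultures is not given, so p-values rest on a spread between libraries that may be purely technical.

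Of the 39 members 20 were detected, meaning at least 3 counts in all 3 libraries of a group. They were 9 of 11 in the Hoxa cluster, 8 of 10 in the Hoxb cluster and 3 of 9 in the Hoxc cluster, and none of 9 in the Hoxd cluster. All 9 Hoxd genes, Hoxa13, Hoxb1, Hoxc11, Hoxc12 and Hoxc13 had 0 counts in every library, which makes 14 members without counts at this depth. As with Ly6a, this need not mean that RNA was absent. A count of 0 allows up to 3 counts, or 0.111 to 0.18 CPM, by counting error alone. Hoxa11, Hoxb13, Hoxc5, Hoxc8 and Hoxc9 had a few counts and missed the detection rule, with at most 9 counts in a library (Hoxc5). Hoxc4 and Hoxc10 met the rule only in HPC het, with 4, 3 and 3 counts and with 3, 3 and 9 counts, and Hoxc6 was the 1 Hoxc member detected in all 6 groups, at 0.567 to 2.97 CPM. By position, 5 of 8 members of paralogue groups 1 to 3, 11 of 15 of groups 4 to 8 and 4 of 16 of groups 9 to 13 were detected.

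To compare genes, CPM were divided by exon length (FPKM, computed here). The length covers all annotated exons of a gene: 8885 bases for Hoxb3, 10600 for Hoxa3 and 10979 for Hoxc6, against 2566 for Hoxb4. Which of these exons are used in these cells was not tested, so the order of genes in FPKM depends on the annotation. Hoxa9 had the highest level per length of all members, with a mean over the 6 groups of 17.7 FPKM, and made up 27.4% to 35.7% of the summed HOX FPKM in every library. Hoxa7 followed at 9.42, Hoxa5 at 6.02, Hoxa6 at 4.199 and Hoxb4 at 3.90 FPKM. Hoxb2 (2.22), Hoxa10 (2.16) and Hoxb3 (2.14 FPKM) lay together, and their order is not separated by their spread. Hoxa2 (1.60), Hoxb5 (1.43), Hoxb6 (0.959) and Hoxa3 (0.956 FPKM) complete the 12 highest members. Reads in exon stretches shared by overlapping genes were not counted, which touches Hoxa3 (38.8% of its exon bases), Hoxa10 (23.6%) and Hoxb2 (18.3%). With the unshared length alone these 3 members had 1.56, 2.83 and 2.72 FPKM.

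Along the Hoxa cluster the level in WT HSC was uneven and highest near the 5' end: it was 2.13 FPKM for Hoxa2, 1.08 for Hoxa3, 0.804 for Hoxa4, 7.92 for Hoxa5, 5.82 for Hoxa6, 10.2 for Hoxa7, 20.7 for Hoxa9 and 3.55 for Hoxa10. Beyond Hoxa10, Hoxa11 had at most 2 counts and Hoxa13 none in any library. In the Hoxb cluster the level per length in WT HSC was highest for Hoxb4 (4.49 FPKM), after 3.22 for Hoxb2 and 2.36 for Hoxb3. It was 2.15 for Hoxb5, 1.68 for Hoxb6, 0.636 for Hoxb7, 1.51 for Hoxb8 and 1.19 for Hoxb9. In CPM, without division by length, Hoxb3 stood above Hoxb4 (20.95 against 11.52 in WT HSC). Paralogues therefore differed widely in level per length. In paralogue group 9, Hoxa9 averaged 17.7 FPKM over the groups, Hoxb9 0.474, Hoxc9 0.0301 and Hoxd9 0. In group 4 the order was turned, with 3.90 FPKM for Hoxb4, 0.646 for Hoxa4, 0.0221 for Hoxc4 and 0 for Hoxd4.

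**Figure D1:**
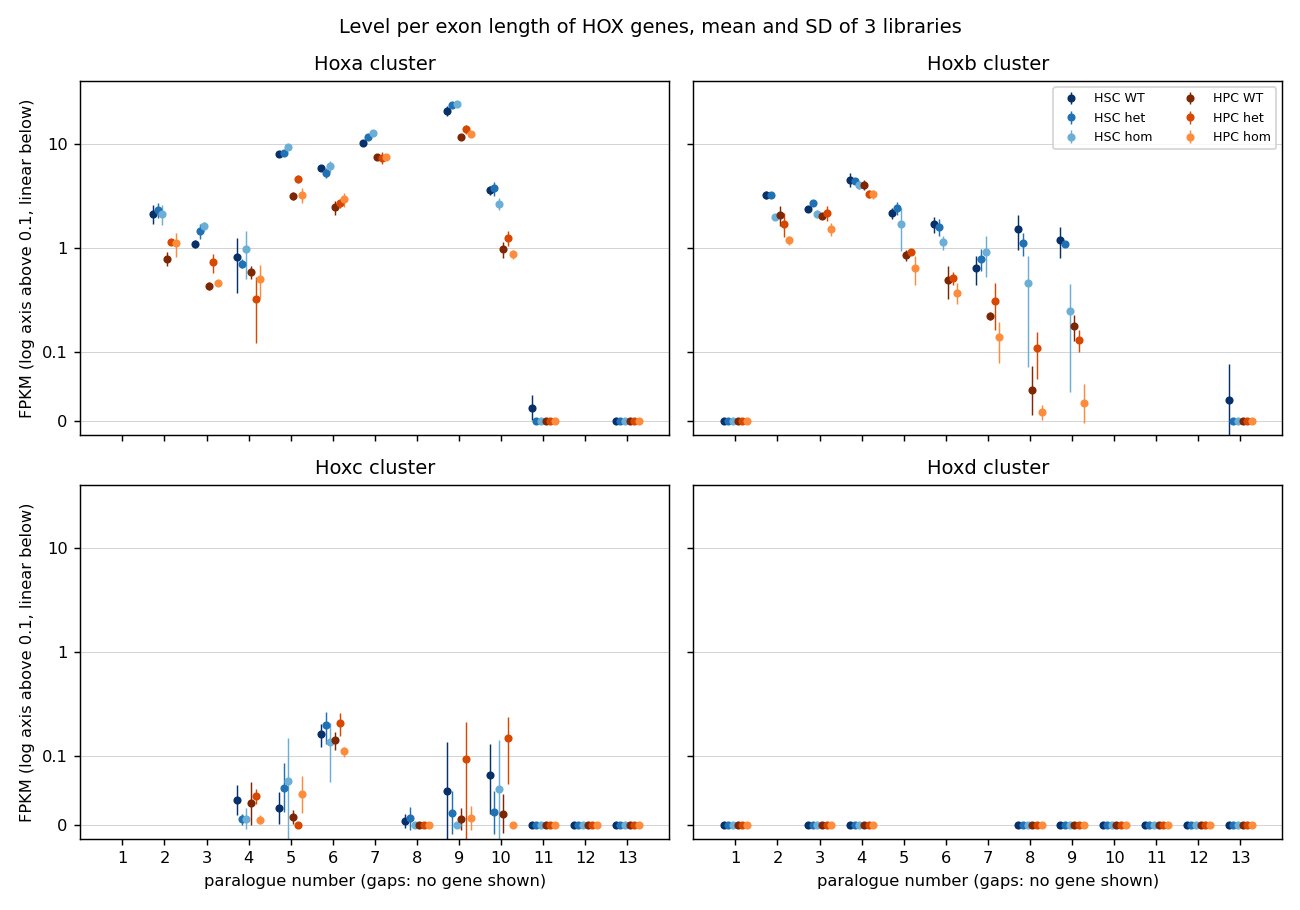
Level per exon length (FPKM; log axis above 0.1, linear below) of HOX genes by paralogue number, in 1 panel per cluster; points are means and bars SDs of 3 libraries, blue shades HSC and orange shades HPC. Hoxa9 stands highest at 11.7 to 24.01 FPKM, the Hoxb level is highest at Hoxb4, no Hoxc group mean exceeds 0.206 FPKM, and all Hoxd genes are at 0.

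HOX transcripts were higher in HSC than in HPC across both expressed clusters. Between WT HSC and WT HPC 11 of the 16 members that passed the filter on low counts in each population alone were higher in HSC and 0 lower (adjusted p under 0.05, edgeR quasi-likelihood test over all 18 libraries), where 26.8% of such genes were higher. Their median log2 fold change was 1.04, beside 0.03 for all genes tested. Hoxb8 and Hoxb9 passed the filter only through HSC and so had to differ. With them 13 of 18 members were higher, beside 27.7% of all 15431 tested genes higher and 27.2% lower, and in 14 of the 18 every WT HSC library exceeded every WT HPC library, beside 32.6% of all genes. Fewer HOX-expressing cells and less HOX RNA per cell cannot be told apart in these bulk libraries.

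Hoxa10, a 5' member of the cluster known for its part in myeloid progenitors and leukaemia, showed the largest difference of the Hoxa cluster. It was at 11, 10.1 and 12.3 CPM in WT HSC and 3.63, 2.79 and 2.67 CPM in WT HPC, a log2 fold change of 1.88 ± 0.17 (adjusted p = 6.5e-09). Gm52902, which shares exon stretches with Hoxa10, was likewise higher in WT HSC (7.39 ± 0.98 against 1.67 ± 0.25 CPM). Reads in the stretches that both share were counted for neither gene. Hoxa9 itself was at 68.6, 58.5 and 72.9 CPM in WT HSC and at 37.9, 38.0 and 37.1 CPM in WT HPC, which is 1.77-fold higher in HSC (log2 0.82 ± 0.08, adjusted p = 2.55e-08).

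Hoxa5, Hoxa3, Hoxa6 and Hoxa2 differed by similar amounts, and Hoxa7 by less. Hoxa5 was at 15.9, 15.0 and 13.8 CPM in WT HSC and 6.11, 6.28 and 5.30 in WT HPC (log2 1.33 ± 0.13). Hoxa3 was at 11.1, 10.6 and 12.6 CPM against 4.57, 4.88 and 4.12 (log2 1.34 ± 0.16). Hoxa6 stood at 13.7, 12.9 and 12.8 CPM against 4.97, 6.53 and 5.01 (log2 1.25 ± 0.15). In each of these 3 genes every HSC library exceeded every HPC library by more than the spread within a group. Hoxa2 had 3.89, 4.52 and 2.93 CPM against 1.14, 1.49 and 1.55 (log2 1.43 ± 0.25), and Hoxa7, the member with the second highest level per length, had 19.5, 19.1 and 20.9 CPM against 14.9, 14.5 and 13.9, the smallest called difference (log2 0.46 ± 0.10, adjusted p = 0.000314). Hoxa4 was not called (log2 0.47 ± 0.45).

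In the Hoxb cluster the members nearest the 3' end differed least. Hoxb3 (log2 0.21 ± 0.12, adjusted p = 0.125) and Hoxb4 (0.16 ± 0.13, adjusted p = 0.321) were not called in WT cells: Hoxb4 was at 10.3, 13.5 and 10.7 CPM in HSC and 10.2, 9.31 and 11.5 CPM in HPC, with groups that overlapped. Hoxb2 was higher in HSC at 5.37, 5.96 and 6.38 CPM against 3.68, 3.04 and 4.64 (log2 0.64 ± 0.19, adjusted p = 0.00743), but without HPC WT replicate 2 its adjusted p was 0.0561. Hoxb5, Hoxb6 and Hoxb7 were called. Hoxb5, a gene whose expression marks long-term stem cells in the mouse, was at 4.04, 3.58 and 4.61 CPM against 1.39, 1.74 and 1.69 (log2 1.34 ± 0.28). Hoxb6 was at 2.51, 2.38 and 3.25 CPM against 0.546, 1.10 and 0.750 (log2 1.76 ± 0.30), and Hoxb7 at 1.59, 0.863 and 1.64 CPM against 0.447, 0.448 and 0.515 (log2 1.52 ± 0.43). Hoxc6 did not pass the test (log2 0.20 ± 0.36).

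The 2 most 5' detected genes of the cluster are given as counts, with no test, because the filter chose them for being high in HSC. Hoxb8, whose forced expression holds myeloid progenitors in an undifferentiated state, had 87, 68 and 152 counts in WT HSC (4.45, 2.79 and 6.09 CPM) and 1, 5 and 2 counts in WT HPC (0.0497, 0.249 and 0.0937 CPM). Hoxb9 had 53, 61 and 111 counts in WT HSC (2.71, 2.51 and 4.45 CPM) and 10, 12 and 7 counts in WT HPC (0.497, 0.598 and 0.328 CPM). No HSC library of either gene overlapped an HPC library.

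**Figure D2:**
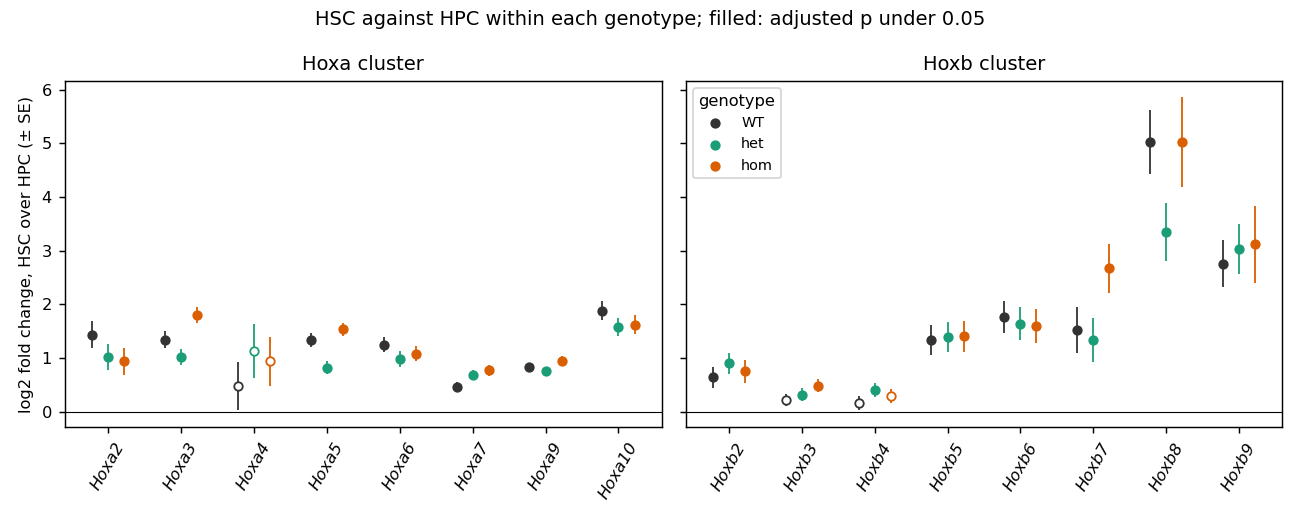
Log2 fold change of HSC over HPC (± SE derived from the F statistic) for the tested Hoxa and Hoxb members within WT, het and hom. Filled points have an adjusted p under 0.05. Hoxa4 is open in every genotype and Hoxb3 and Hoxb4 lie nearest to 0 in the Hoxb cluster. Hoxb8 and Hoxb9 passed the filter only through HSC, so their filled points are not to be read as a test result. Their fitted values in hom rest on 0 to 3 counts per HPC library.

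The het and hom libraries, which share no library with the WT comparison, gave 15 and 14 of 18 members higher in HSC and 0 lower, beside 28.9% of all genes higher and 29.2% lower in het, and 30.1% higher and 30.5% lower in hom. Among members that passed in each population alone the counts were 13 and 12 of 16, beside 28.1% and 29.4%. These comparisons came from the same fit as that of WT, and population and sex of the donors cannot be told apart in them either. Hoxb4 joined the called members in het cells, at 11.5, 10.6 and 11.5 CPM in HSC and 9.19, 7.78 and 8.35 CPM in HPC (log2 0.41 ± 0.13, adjusted p = 0.0119, edgeR), and was not called in hom cells (11.1, 10.1 and 9.52 against 7.87, 7.92 and 9.25 CPM, adjusted p = 0.0645, and 0.0535 without HSC hom replicate 3). Hoxb3 was called in both, at log2 0.32 ± 0.12 in het cells, where the groups overlapped, and 0.49 ± 0.12 in hom cells. Hoxb3 in het cells lost its call without HSC het replicate 1 (adjusted p = 0.0829), HPC het replicate 2 (0.135) or HPC het replicate 3 (0.112), and Hoxb4 without HPC het replicate 2 (0.0574).

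Without HSC hom replicate 3 the hom counts were the same, 14 of 18 and 12 of 16. Hoxa6 was at 13.1, 11.9 and 10.6 CPM in HSC het and 6.38, 5.37 and 6.25 in HPC het, and at 12.3, 15.6 and 13.4 in HSC hom and 7.70, 5.94 and 5.98 in HPC hom. Hoxa2 was at 4.74, 3.43 and 4.16 CPM in HSC het and 1.98, 1.95 and 2.15 in HPC het, and at 3.61, 3.03 and 4.59 in HSC hom and 2.05, 2.40 and 1.41 in HPC hom. No library of one population overlapped the other in either gene. Hoxb5 was at 3.81, 4.94 and 4.86 CPM in HSC het and 1.79, 1.65 and 1.73 in HPC het, and at 1.75, 3.16 and 4.59 in HSC hom and 1.03, 1.61 and 0.955 in HPC hom. Hoxb6 was at 2.92, 2.75 and 2.02 CPM against 0.894, 0.884 and 0.683 in het cells, and at 1.60, 1.73 and 2.15 against 0.513, 0.521 and 0.754 in hom cells. The HSC hom libraries of Hoxb5 were widely spread, from just above the highest HPC hom library upwards. Hoxb7 was at 2.03, 1.24 and 1.79 CPM against 0.383, 0.590 and 0.998 in het cells, and at 1.13, 1.89 and 2.77 against 0.171, 0.312 and 0.402 in hom cells.

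Markers of mature cells also differed between the populations, where 27.7% of all tested genes were higher and 27.2% lower in WT HSC. Of the neutrophil granule list 9 of 10 were lower in WT HSC and 1 higher, and its summed level was 64.4 to 77.5 CPM in WT HSC and 1635 to 1732 CPM in WT HPC. All 8 monocyte markers were lower in WT HSC (185 to 199 CPM summed, against 373 to 412 CPM), as were 6 of 6 tested mast cell and basophil markers, 5 of 7 megakaryocyte markers and 3 of 4 tested erythroid markers. Of the T cell markers 0 of 2 tested were called, both tested B cell markers were higher in WT HSC, 2 of 3 tested stromal markers were higher and 1 lower, and 1 of 5 tested endothelial markers was called in each direction. Their part in the HOX differences was not tested.

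Few HOX genes differed between the Runx2 genotypes in HSC. Between HSC hom and HSC WT 1 of 18 tested members was higher, Hoxa3, and 1 lower, Hoxb9, beside 2.01% of all 14959 tested genes called (1.2% higher and 0.802% lower, edgeR quasi-likelihood test over the 9 HSC libraries). Hoxb9 met the filter on low counts only through WT and het, so its call is not to be read as a test result. The clusters leaned in opposite directions in sign: 8 of 9 Hoxa members had a log2 fold change above 0, with a median of 0.25, and 7 of 8 Hoxb members had one below 0, with a median of -0.44, beside 50.4% of all genes above 0. Without HSC hom replicate 3 these numbers were 6 of 9 (median 0.20) and 7 of 8 (median -0.67). Most of these single differences did not pass the test, and neighbouring genes of a cluster are not independent.

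Hoxb9 was at 2.71, 2.51 and 4.45 CPM in HSC WT, 2.82, 2.97 and 2.91 CPM in HSC het and 0.309, 0.379 and 1.29 CPM in HSC hom. All 3 hom libraries lay below all WT and het libraries, and the hom level was 20.9% of WT (log2 -2.26 ± 0.43, adjusted p = 0.0184). Hoxb9 met the filter on low counts through its WT and het libraries and not through hom, so the filter and this call are not independent. Its call and adjusted p-values, in all fits given here, are therefore not to be read as a test result. Its counts in the hom libraries were 6, 9 and 27, the last in replicate 3. Without that replicate the log2 fold change was -3.18 (adjusted p = 0.000318), and with replicate 2 of hom left out instead the adjusted p was 0.1. Over the 6 fits that leave out 1 library the call held in 2, and without HSC WT replicate 1, 2 or 3 the adjusted p was 0.0514, 0.0504 or 0.08. A fit of the HSC hom and HSC WT libraries alone ended the call (adjusted p = 0.0628).

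Hoxb8, next to Hoxb9, was at 4.45, 2.79 and 6.09 CPM in HSC WT, 2.37, 3.94 and 3.46 CPM in HSC het and 0.825, 0.589 and 2.63 CPM in HSC hom. All hom libraries were below the WT libraries, but hom replicate 3 overlapped the het range, and the log2 fold change of -1.70 ± 0.47 did not pass the test (adjusted p = 0.0836). Without hom replicate 3 it was -2.63 (adjusted p = 0.00111), the 1 call in the 6 fits that leave out a library. Over these fits the log2 fold change ran from -2.63 to -1.33, and the adjusted p reached 0.248 (edgeR). Hoxb2 was at 5.37, 5.96 and 6.38 CPM in HSC WT, 5.98, 5.58 and 5.87 in HSC het and 3.45, 3.91 and 3.54 in HSC hom. Its 3 hom libraries were tight and lay below all others, and its log2 fold change of -0.67 ± 0.18 did not pass the test either (adjusted p = 0.0643, and 0.0798 without hom replicate 3). For Hoxb6 the fitted value was -0.55 ± 0.27 and for Hoxb5 -0.33 ± 0.29, and Hoxb7 was the 1 Hoxb member with a value above 0 (0.54 ± 0.38). Without hom replicate 3 these values were -0.68 ± 0.31, -0.69 ± 0.28 and 0.19 ± 0.40, again without a call.

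Hoxa3 was at 11.1, 10.6 and 12.6 CPM in HSC WT, 13.1, 18.2 and 14.9 in HSC het and 15.4, 16.7 and 18.8 in HSC hom. Every het and hom library was above every WT library. The hom difference passed the test (log2 0.59 ± 0.14, adjusted p = 0.0471) and the het difference did not (0.43 ± 0.14, adjusted p = 0.236). Of the 6 fits that leave out a library the hom call held in 1, that without HSC hom replicate 1 (adjusted p = 0.026), and the highest adjusted p was 0.186, without HSC WT replicate 2. Without HSC hom replicate 3 it was 0.0607, with only the groups compared 0.0594 and with the replicate number as a block 0.0633, so that the call ended under each. Hoxa3 overlaps the noncoding gene 5730596B20Rik over 34.8% of its exon bases, and reads there were counted for neither gene.

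The abundant Hoxa genes had small differences of the same sign that were not called. Hoxa7 was at 23.4, 22.5 and 22.4 CPM in HSC het and 24.2, 24.9 and 24.7 in HSC hom, above the WT libraries (19.5 to 20.9 CPM), with a log2 fold change for hom of 0.34 ± 0.09 (adjusted p = 0.0768). Hoxa9 was at 80.4, 71.9 and 73.6 CPM in HSC het and 72.9, 77.5 and 82.1 in HSC hom (log2 for hom 0.24 ± 0.09, adjusted p = 0.163). Hoxa5 was at 14.3, 16.1 and 15.1 CPM in HSC het and 16.5, 17.4 and 17.98 in HSC hom (log2 for hom 0.25 ± 0.11, adjusted p = 0.258). Hoxa10 went the other way, at 11.1, 13.64 and 10.2 CPM in HSC het and 7.16, 8.59 and 9.23 in HSC hom, below the WT libraries (log2 for hom -0.39 ± 0.16, adjusted p = 0.206). For 4 members all hom libraries were above all WT libraries and for 5 all were below, beside 10.5% and 14.5% of all genes. Without hom replicate 3 Hoxa7 (log2 0.34, adjusted p = 0.0868), Hoxa9 (0.20, 0.224), Hoxa5 (0.22, 0.35) and Hoxa10 (-0.47, 0.127) were not called either.

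**Figure D3:**
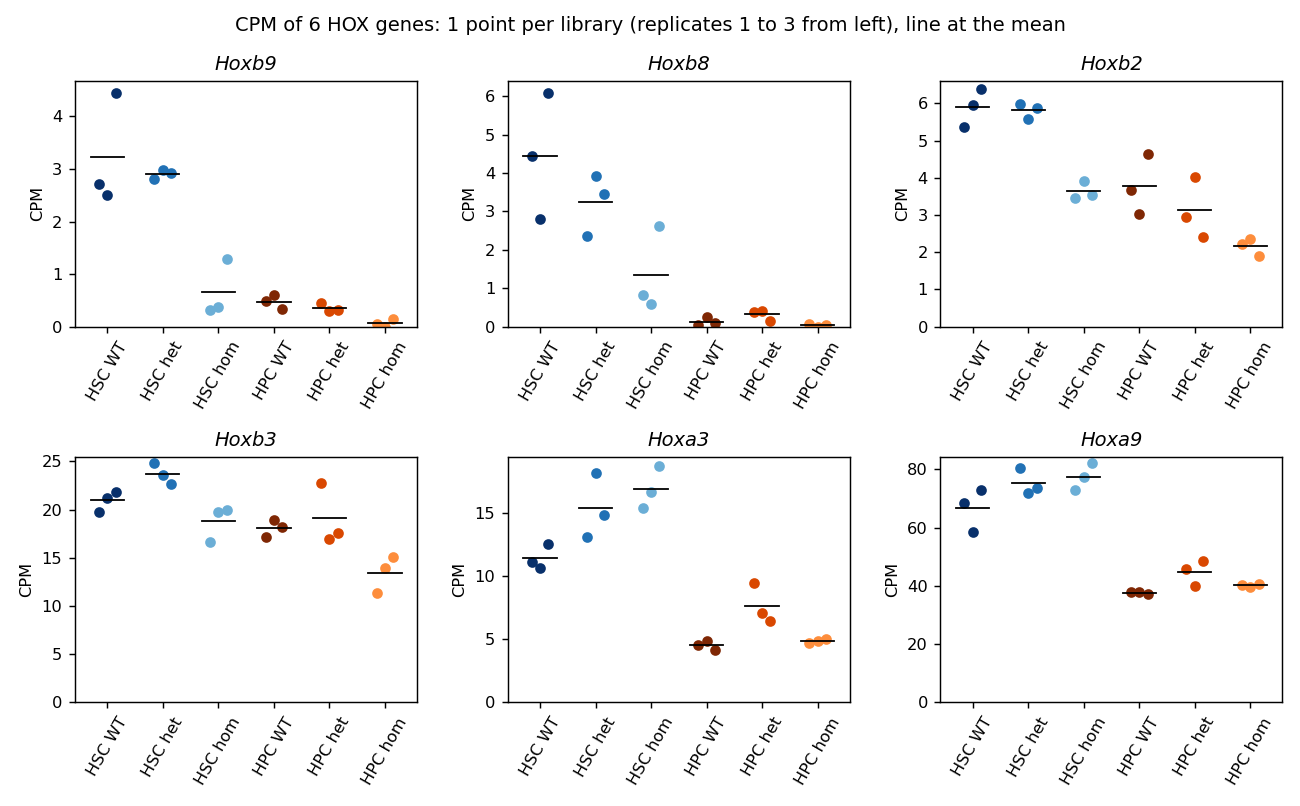
CPM (linear axis from 0) of 6 HOX genes in the 18 libraries, 1 point per library with replicates 1 to 3 from left to right and a line at each group mean. Hoxb9 and Hoxb8 are lowest among HSC groups in hom, where replicate 3 is the highest point (1.29 and 2.63 CPM), Hoxb2 and Hoxb3 are lowest in HPC hom, and Hoxa3 is highest among HPC groups in het.

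HSC het and HSC WT differed in 0 of 18 members, beside 0.0334% of all genes (edgeR), with 2 members, Hoxa3 and Hoxa7, at an unadjusted p under 0.05; DESeq2 called 0. HSC hom and HSC het differed in 0 members, beside 0.0134% of all genes, with 5 members at an unadjusted p under 0.05 (Hoxb9, Hoxb2, Hoxb3, Hoxa10 and Hoxb8), and DESeq2 called 1. Without HSC hom replicate 3 the same comparison called 2 members, as did a fit with no filter on low counts. The hom against het value of Hoxb9 was -2.11 ± 0.43 (adjusted p = 0.0862) and lay near its hom against WT value, and the 2 comparisons share the hom libraries. Here too Hoxb9 met the filter only through WT and het, so its adjusted p is not to be read as a test result.

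In HPC the members called lower in the homozygous knockout lay in the Hoxb cluster. Between HPC hom and HPC WT 2 of 16 tested members were lower, Hoxb2 and Hoxb3, and 0 higher, beside 4.29% of all 13855 tested genes lower and 4.92% higher. Hoxb2 was at 3.68, 3.04 and 4.64 CPM in HPC WT, 2.94, 4.01 and 2.42 in HPC het and 2.23, 2.34 and 1.91 in HPC hom, so that hom was 57.2% of WT with no overlap (log2 -0.81 ± 0.23, adjusted p = 0.0329). Hoxb3 was at 17.1, 18.9 and 18.2 CPM in HPC WT, 22.7, 16.9 and 17.6 in HPC het and 11.3, 13.9 and 15.0 in HPC hom, 74.6% of WT and again without overlap (log2 -0.42 ± 0.12, adjusted p = 0.0382). Both calls were close to the threshold. Hoxb2 kept its call in 1 of the 6 fits that leave out a library, that without HPC WT replicate 2, with adjusted p up to 0.184 (without HPC WT replicate 3). Hoxb3 kept it in 2, those without HPC hom replicate 3 or HPC WT replicate 1, with adjusted p up to 0.158 (without HPC hom replicate 1).

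The other tested Hoxb members had values of the same sign without a call, from -0.30 ± 0.13 for Hoxb4 (10.2, 9.31 and 11.5 CPM in WT, 7.87, 7.92 and 9.25 in hom) to -0.64 ± 0.50 for Hoxb7, so that all 6 tested Hoxb members were below 0 (median -0.42) and 7 of 9 Hoxa members above 0 (median 0.10), beside 50% of all genes above 0. All hom libraries lay below all WT libraries for 4 members and above them for 1, beside 13.8% and 13% of all genes. Hoxb8 and Hoxb9 were too low in HPC to be tested there. Hoxb9 had 10, 12 and 7 counts in HPC WT, 7, 5 and 6 in HPC het and 1, 0 and 3 in HPC hom, and Hoxb8 had 1, 5 and 2, then 6, 7 and 3, then 1, 0 and 1. The hom counts of Hoxb9 lay below those of both other groups. None of the 9 Hoxa members was called, with Hoxa9 at 40.3, 39.6 and 40.6 CPM in HPC hom (log2 0.10 ± 0.08).

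In heterozygous HPC the called members lay in the Hoxa cluster. Between HPC het and HPC WT 3 of 16 members were higher, all in the Hoxa cluster, and 0 lower, beside 9.15% of all genes higher and 6.99% lower. Hoxa3 was at 4.57, 4.88 and 4.12 CPM in HPC WT, 9.45, 7.08 and 6.46 in HPC het and 4.74, 4.84 and 5.03 in HPC hom. The het libraries were above all others, the het difference from WT was log2 0.76 ± 0.16 (adjusted p = 0.00343), and this call held in all 6 fits that leave out a library. Hoxa5 was at 6.11, 6.28 and 5.30 CPM in HPC WT, 9.45, 8.37 and 7.98 in HPC het and 7.08, 5.89 and 5.08 in HPC hom (log2 for het 0.55 ± 0.15, adjusted p = 0.0155). Hoxa9 was at 37.9, 38.0 and 37.1 CPM in HPC WT and 45.8, 39.8 and 48.6 in HPC het (log2 0.25 ± 0.08, adjusted p = 0.0301). Hoxa5 kept its call in 4 of 6 such fits (adjusted p = 0.0734 without HPC het replicate 1 and 0.0712 without HPC WT replicate 3), and Hoxa9 in 1 of 6, that without HPC het replicate 2 (adjusted p up to 0.174, without HPC het replicate 3).

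Against HPC het, HPC hom was lower in Hoxa3 (log2 -0.65 ± 0.16, adjusted p = 0.0176), Hoxa5 (-0.52 ± 0.15, adjusted p = 0.035) and Hoxb3 (-0.50 ± 0.13, adjusted p = 0.0168), 3 of 16 members beside 5.77% of all genes lower and 3.63% higher. HPC het replicate 1 had the highest value of its group in all 3 genes, and without it none was called: the adjusted p was 0.101 for Hoxa3, 0.118 for Hoxa5 and 0.0903 for Hoxb3. Hoxb3 also lost its call without HPC hom replicate 1 (0.0709) and Hoxa3 without HPC hom replicate 2 (0.051), and Hoxa5 kept it in 1 of 6 such fits. These comparisons share the HPC het libraries with those against WT. Hoxa7, Hoxa6 and Hoxa10 were not called in any comparison between HPC genotypes; Hoxa7 was at 16.3, 12.97 and 13.4 CPM in HPC het and 13.8, 15.3 and 14.4 in HPC hom, and Hoxa10 at 3.89, 3.24 and 4.52 and at 3.02, 2.45 and 2.67.

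**Figure D4:**
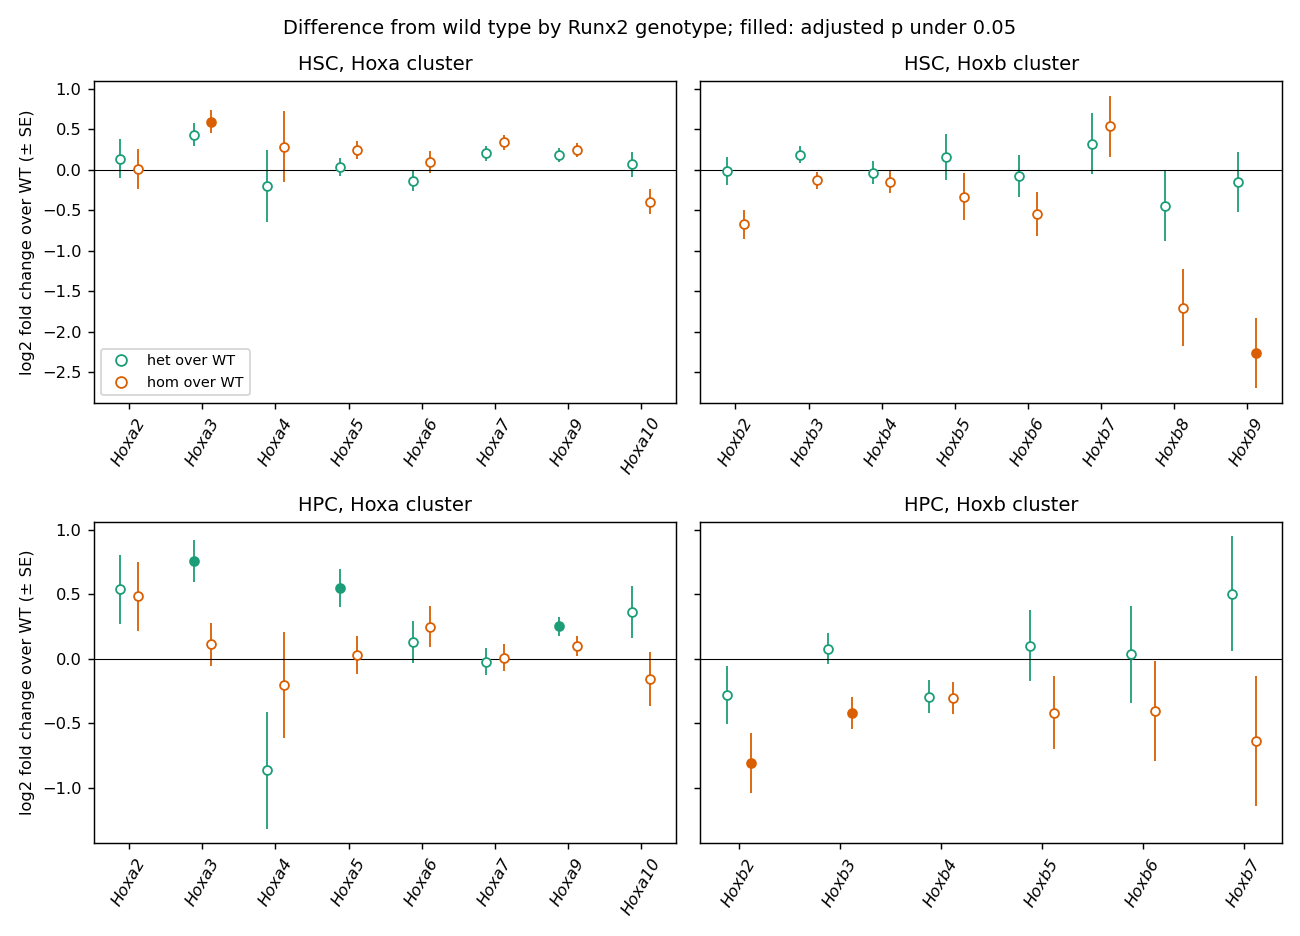
Log2 fold change over WT (± SE derived from the F statistic) of tested Hoxa and Hoxb members in HSC (upper panels) and HPC (lower panels), het in green and hom in orange, each population with its own vertical axis. Filled points have an adjusted p under 0.05. The 2 filled points in HSC are Hoxa3 and Hoxb9 in hom, and those in HPC are Hoxa3, Hoxa5 and Hoxa9 in het and Hoxb2 and Hoxb3 in hom. Hoxb9 in HSC met the filter on low counts only through WT and het, so its filled point is not to be read as a test result.

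Hoxa4 and Hoxc6 were low, detected in all 6 groups and called in no comparison. Hoxa4 was at 1.07, 0.657 and 1.97 CPM in HSC WT and 0.845, 0.797 and 1.03 CPM in HPC WT, with the lowest library of all, 0.210 CPM, in HPC het. Hoxc6 was at 2.62, 2.54 and 1.63 CPM in HPC het and 1.25, 1.30 and 1.06 CPM in HPC hom, groups that did not overlap, and hom against het did not pass the test (log2 -0.90 ± 0.29, adjusted p = 0.0564). That value lay at the threshold: Hoxc6 passed it with a filter of 1 CPM in 3 libraries (adjusted p = 0.0498), with the replicate number as a block (0.0457) and in 1 of the 6 fits that leave out a library.

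Summed over its members, the Hoxb cluster was at 54.2 ± 4.22 CPM in HSC WT, 55.6 ± 0.60 in HSC het and 41.6 ± 4.79 in HSC hom, and at 35.7 ± 1.92, 34.5 ± 3.67 and 26.1 ± 2.68 CPM in HPC (mean ± SD, n = 3). In both populations every hom library was below every WT and het library. The Hoxa cluster was at 144 ± 10.0, 159 ± 5.22 and 166 ± 9.61 CPM in HSC and at 75.0 ± 2.29, 89.7 ± 7.98 and 79.3 ± 1.45 CPM in HPC. Without HSC hom replicate 3 the HSC hom means were 39.2 CPM for Hoxb and 161 CPM for Hoxa. These sums are given without a test. Sums of CPM weigh abundant genes most: Hoxa9 in the one cluster and Hoxb3 and Hoxb4 in the other.

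**Figure D5:**
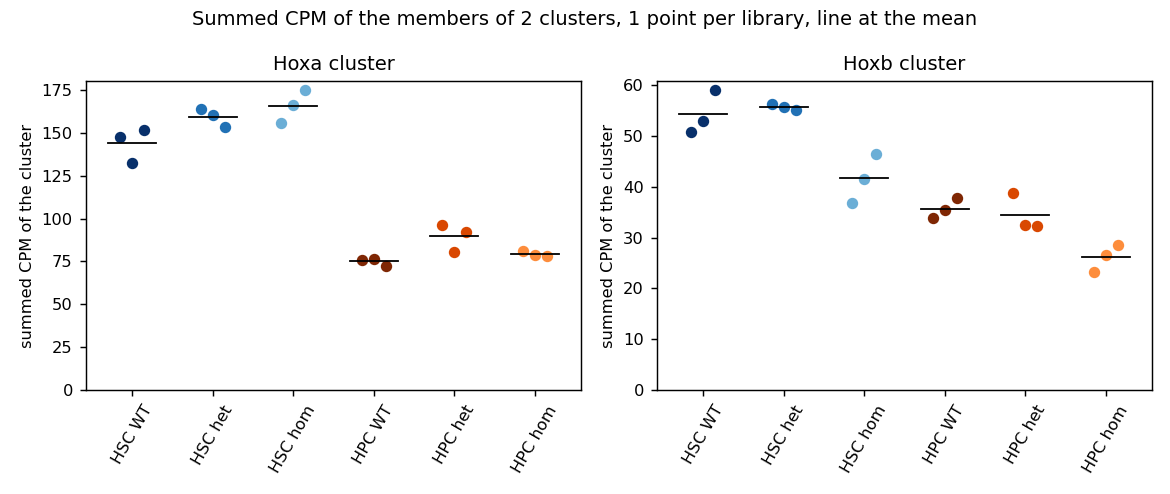
Summed CPM of the Hoxa and Hoxb members (linear axes from 0), 1 point per library and a line at each group mean. The Hoxb sum is 36.9 to 46.4 CPM in HSC hom against 50.8 to 58.9 in HSC WT, and 23.2 to 28.5 in HPC hom against 33.9 to 37.7 in HPC WT.

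The difference between the populations in the genotype effect was tested as an interaction over all 18 libraries. For hom it called 0 of 18 members, beside 2.79% of all genes, and for het 0, beside 1.94% (edgeR), with 2 and 1 members at an unadjusted p under 0.05; DESeq2 called 0 in both. Hoxb2 fell in HPC hom and had a like value in HSC hom, and its interaction was 0.11 ± 0.29. Hoxa5 had the lowest interaction p for het (-0.51 ± 0.18, adjusted p = 0.17). No member is therefore shown to respond differently in HSC and HPC, and with these standard errors differences of the size of the single effects cannot be told from 0 for most members.

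In HPC the markers of mature cells moved with the genotype as well. Of all tested genes 4.92% were higher and 4.29% lower in HPC hom, and 9.15% and 6.99% in HPC het. All 8 monocyte markers were higher in HPC hom and in HPC het than in HPC WT (summed 686 to 780, 673 to 683 and 373 to 412 CPM), and 8 of 10 neutrophil granule markers were higher in HPC hom (2685 to 2870 CPM summed, against 1635 to 1732) and 4 of 10 in HPC het. Of the HSC markers 5 were lower and 1 higher in HPC hom, and 2 were lower and 3 higher in HPC het. Of 7 megakaryocyte markers 4 were lower in HPC het (summed 401 to 545 CPM, against 655 to 726 in HPC WT) and 1 in HPC hom. In HSC hom 0 of 10 HSC markers and 0 of 5 tested neutrophil markers were called, and 1 of 7 monocyte markers was lower, beside 0.802% of all genes. Their part in the HOX results was not tested.

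Of the 9 listed TALE cofactors with which HOX proteins bind DNA 7 were tested in HSC and 6 in HPC. Called were 0 in HSC het, 1 in HSC hom, 3 of 6 in HPC het (where 6.99% of all genes were lower) and 1 in HPC hom against WT, all lower, with Pbx3 among the 3 in HPC het (log2 -0.45 ± 0.14, adjusted p = 0.0353). The shares of all genes lower were 0.802% in HSC hom and 4.29% in HPC hom. Pbx3 was lower in HSC hom than in WT (8.13 ± 0.71 against 12.6 ± 1.55 CPM, log2 -0.61 ± 0.14, adjusted p = 0.0404, and 0.0209 without HSC hom replicate 3). Meis1, the partner of Hoxa9 in leukaemia, was the 1 cofactor called in HPC hom (140 ± 10.5 against 167 ± 2.90 CPM, log2 -0.25 ± 0.06, adjusted p = 0.0147), and was also lower in WT HSC than in WT HPC (138 ± 13.1 CPM, log2 -0.27 ± 0.08). Between WT populations 3 cofactors were higher in HSC and 2 lower, beside 27.7% and 27.2% of all genes. Pbx4 was higher (15.2 ± 2.72 against 7.18 ± 1.5 CPM), and Meis3, also called higher, stayed under 1 CPM.

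Of 22 listed activators of HOX chromatin 19 were tested. In HSC hom 1 was higher, Kmt2b, a histone H3 lysine 4 methyltransferase (128 ± 3.09 against 100 ± 9.30 CPM, log2 0.37 ± 0.08, adjusted p = 0.0386, and 0.0349 without HSC hom replicate 3), and in HPC hom 1 was higher, Mllt3, a reader of acetylated histones (log2 0.28 ± 0.08, adjusted p = 0.0264). The shares of all genes higher were 1.2% in HSC hom and 4.92% in HPC hom. Between WT populations 2 of the 19 activators were higher and 5 lower in HSC, beside 27.7% and 27.2% of all genes. The lower ones were led by Npm1 (log2 -1.15 ± 0.08). Of 17 listed repressors and boundary factors all were tested, with 0 called in HSC hom and 2 lower in HPC hom (4.29% of all genes), the Polycomb genes Phc1 (log2 -0.30 ± 0.08) and Pcgf2 (-0.27 ± 0.08). In WT HSC 9 of these 17 were lower and 3 higher than in WT HPC, beside 27.2% and 27.7% of all genes. Among the 17 were Ezh2, the Polycomb methyltransferase (log2 -0.47 ± 0.06), and Ctcf, which binds boundaries within the clusters (-0.53 ± 0.06), both lower, and Phc1, higher (0.72 ± 0.08). Cdx1, Cdx2 and Cdx4, upstream regulators of HOX genes in the embryo, were at 0 counts in all groups.

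Of 17 noncoding genes of the clusters 5 were tested in HSC and 4 in HPC, and none was called in hom against WT in either. Hoxaas2 (0.931 ± 0.21 against 0.226 ± 0.11 CPM, log2 2.01 ± 0.47) and Hoxaas3 (1.32 ± 0.60 against 0.436 ± 0.13 CPM, log2 1.59 ± 0.42), antisense genes of the Hoxa cluster, were higher in WT HSC, as were the Hoxa genes beside them. Hoxb5os was at 6.27 ± 0.27 CPM in HPC WT, 8.54 ± 1.08 in HPC het and 5.85 ± 0.39 in HPC hom; it was higher in het than in WT (log2 0.45 ± 0.13, adjusted p = 0.0271) and lower in hom than in het (-0.55 ± 0.14, adjusted p = 0.0154). Hotair, Hottip, Haglr and Halr1, long noncoding RNAs of the clusters, were at 0 counts in every group.

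Among 16 listed target genes of HOXA9 and MEIS1, Flt3, a cytokine receptor of early progenitors, was higher in hom in both populations (log2 0.32 ± 0.08, adjusted p = 0.0467, and 0.0475 without HSC hom replicate 3, in HSC; 0.49 ± 0.08, adjusted p = 0.000831 in HPC). It was the 1 called of 14 tested in HSC hom, where 1.2% of all genes were higher. In HPC het 6 of 15 were higher, Flt3 among them (log2 1.00 ± 0.08), and 1 lower, beside 9.15% and 6.99% of all genes. In HPC hom 4 of 15 were higher and 1 lower, beside 4.92% and 4.29% of all genes. The called targets included Trib2 (log2 1.14 ± 0.17), a pseudokinase linked to myeloid leukaemia, and Camk2d (0.35 ± 0.08), both higher, and the survival gene Bcl2 (-0.28 ± 0.07), lower. Between WT populations 5 of 15 were higher and 8 lower in HSC, beside 27.7% and 27.2% of all genes, with Bcl2 (32.9 ± 0.86 against 171 ± 7.99 CPM) and Cdk6 (log2 -1.57 ± 0.09) the lowest. In the interaction 1 of 15 tested targets was called for hom and 1 for het, both below 0, and 0 of 7 cofactors. Of all genes 2.79% were called for hom and 1.94% for het.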

How the data were processed

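Polyadenylated RNA of 18 libraries was analysed; the 2 CUT&Tag samples were not analysed here. Per the submitters' processing notes the tools were Trim Galore 0.6.10 for trimming, STAR 2.7.11a for alignment and featureCounts 2.0.6 for counting, and the notes name build mm39. The deposited values are raw counts per gene, 1 table per population, counted by the authors without regard to strand over exons of an mm10 annotation, per the file headers; mm10 coordinates are given. Column names tied every library to its labels and 0 columns were left unused.

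Members and gene lists were chosen with earlier results of these data known. Genotypes were compared in 1 fit of 9 libraries per population and populations in 1 fit of 18, with the edgeR 4.0.16 quasi-likelihood F test in R 4.3.3 (TMM factors, filterByExpr on groups, Benjamini-Hochberg adjustment over all genes tested). Genes with an adjusted p under 0.05 were called, and only those are said to differ. The test was checked on simulated counts. For CPM, counts were divided by library totals multiplied by TMM factors (18 libraries together), and for FPKM, CPM were divided by the exon length in kb given in the tables. Values after ± are SDs of 3 libraries for levels. For log2 fold changes they are standard errors derived from the F statistic: the absolute log2 fold change divided by the square root of F. Such values can fail near a log2 fold change of 0. That of Hoxb8 was 0.0483 in the hom interaction, beside 0.595 and 0.838 for HSC against HPC in WT and hom. Counting floors cover counting error only.

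All 39 members are counted, and 1 member and 1 cofactor are not reported here by name; members called in a comparison, and the 12 with the highest level per length, have values per library. From each other list (cofactors, activators, repressors, noncoding genes, HOXA9 and MEIS1 targets) up to 4 called genes by p were named for hom against WT and WT HSC against WT HPC; Hoxb5os, Pbx3 and Flt3 in HPC het, the long noncoding genes at 0 and the Cdx genes were named after their values were seen. Alternatives were RLE size factors, no filter, a filter of 1 CPM in 3 libraries, a replicate block, DESeq2 1.42.0, only the groups compared, and each library left out. Added after seeing the data were the subset of genes that passed in each population alone, the motif form TGCGGT, and cofactors, activators, targets and cluster sums without HSC hom replicate 3. A planned comparison of homeodomain sequences was not made, as protein sequences were not used here.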

Additional observations from a re-analysis of the deposited data

How the results depend on the processing

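No called difference changed sign under an alternative. The HOX counts in the 3 comparisons of HSC with HPC (13, 15 and 14) stayed within 1.5 times: with 1 library left out they were 12 to 13, 14 to 15 and 14 to 15. They include Hoxb8 and Hoxb9, which passed the filter only through HSC and so had to differ. Of the 16 members that passed in each population alone 11, 13 and 12 were called with all libraries. Genotype counts were less stable. The 2 HOX members called in HSC hom against WT include Hoxb9, which met the filter only through WT and het. In HSC hom against WT, 300 genes were called, 898 without a filter on low counts, 794 with DESeq2, 155 with only the groups compared and 48 to 638 with 1 library left out; HOX members called were 2, 5 with DESeq2, 0 with only the groups compared and 0 to 2 with 1 library left out. In HSC het against WT, 5 genes were called, 399 without a filter, 220 with DESeq2, 299 with only the groups compared and 2 to 7 with 1 library left out. In HSC hom against het, 2 genes were called, 511 without a filter, 160 with DESeq2, 1 with only the groups compared and 1 to 408 with 1 library left out; HOX members called were 0, 2 without a filter, 1 with DESeq2 and 0 to 2 with 1 library left out. With 1 library left out HOX members called were 0 to 1 in HPC hom against WT (2 with all), 1 to 3 in HPC het against WT (3) and 0 to 3 in HPC hom against het (3, where 1303 genes fell to between 701 and 1179). The interaction called 431 genes for hom, 738 without a filter, 831 with DESeq2 and 149 to 941 with 1 library left out; for het it called 300, 592 without a filter, 499 with DESeq2, 514 with only the groups compared and 138 to 292 with 1 library left out. The highest counts, 638, 408 and 941, were those without HSC hom replicate 3, and the lowest were 48 without HSC WT replicate 2, 701 without HPC het replicate 2, 149 without HPC WT replicate 2 and 138 without HPC WT replicate 3. Without HSC hom replicate 1, HSC hom against WT called 592 genes. The cause of these shifts was not tested.

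Replicate numbers are shared by the groups, and whether they pair the libraries is not given. Deviations of same-numbered libraries correlated at -0.127 to 0.14 in HSC and -0.114 to 0.228 in HPC. Those of differently numbered libraries correlated at -0.177 to 0.202 and -0.274 to 0.272. Between hom and WT the same-numbered values were all positive (0.14, 0.0301 and 0.12 in HSC, 0.0936, 0.0483 and 0.228 in HPC). Those with het were of either sign, so pairing is not settled. With a replicate block HSC hom against WT called 189 genes and 1 HOX member, losing Hoxa3, HPC hom against WT called 1 HOX member, losing Hoxb3 (adjusted p = 0.0514), and HPC hom against het called 4, gaining Hoxc6. At this depth members with a few counts, all Hoxc genes but Hoxc6 among them, could not be compared.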
